A study of Mus musculus with 6 samples.

Results

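The set described here is 10 genes of the Notch pathway, out of 18193 genes with a named probe set, followed in cells of the Gli1 lineage that were sorted from ovaries of adult mice: the receptors Notch1, Notch2, Notch3 and Notch4, the ligands Jag1, Jag2 and Dll1, and the target genes Hes1, Hey1 and Heyl. All probe sets whose only platform gene symbol was one of these 10 genes were taken, which gave 20 of the 45037 probe sets on the array that are not controls. The cells came from females of strain 129S6/SvEvTac, aged 2 months, that carried Gli1-CreERT2 and Rosa-LSL-tdTomato, so that tamoxifen turned on a lasting red label in whatever cells expressed Gli1 at that time. In the group Mesonephros_theca (n = 3) tamoxifen was given at E12.5, with repeat doses on E14.5 and then E16.5; in the group Ovary_theca (n = 3) by way of the lactating mother, from postnatal day 1 until day 3. Both groups carried the same alleles and were dissociated and sorted by fluorescence as adults, and RNA was hybridised to 1 array per sample. Embryonic against postnatal labelling and mesonephric against ovarian origin changed together, so they cannot be told apart. Whether the replicates were separate animals is not said in the labels. A p-value here sets a group difference against the spread within the groups. It therefore speaks only of these 6 samples, and that spread may be technical.

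Notch receptors are cleaved after they bind a ligand on a neighbouring cell, and the freed intracellular part enters the nucleus, where it joins Rbpj and a Mastermind protein to switch on genes such as the Hes and Hey repressors. In the ovary the pathway is known for signalling between oocytes and granulosa cells, and in vessels for the choice of arterial identity and the upkeep of the smooth muscle wall. Theca cells lie beside those vessels, outside the granulosa layer.

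The label was set against markers first. On the summed signal of 6 theca markers the mesonephros-derived arrays stood at 30584 to 53091 and the ovary-derived arrays at 18925 to 27078, and the steroid enzyme genes Cyp17a1, Cyp11a1 and Hsd3b1 were above the floor of 99.4 on every array. Hsd3b1 alone was a large part of each sum, at 13295 to 18914 and 9471 to 16815. Of the 6 markers 5 were higher in mesonephros-derived cells, where 43.5% of all genes tested were higher. Nr5a1 was lower, at −0.43 log2 units. The 15 smooth muscle and pericyte markers summed to 95714 to 124370 on the mesonephros-derived arrays and 48526 to 58779 on the ovary-derived arrays. Acta2 and Mylk made up much of each sum, Acta2 at 21590 to 31905 and 10857 to 13016, and Mylk at 21170 to 31838 and 10765 to 11679. In direction all 15 were higher in mesonephros-derived cells, against 43.5% of all genes tested. Past the threshold were 2 of them, Myh11 and Tagln, against 0.0256% of all genes tested. Abcc9, Kcnj8 and Cspg4 were nearly level, at 0.027, 0.030 and 0.068 log2 units, and another Abcc9 probe set (1435752_s_at) was lower, at −0.78. Of 8 oocyte markers 6 were below the floor on all 6 arrays, while the granulosa transcription factor Foxl2 was above it on all 6. Inha, Inhba and Hsd17b1 were above it too, Fshr was below it on all 6, and Amh and Nr5a2 were below it on some. The 7 granulosa markers with a probe set summed to 5775 to 6770.3 on the mesonephros-derived arrays and 5184 to 6837 on the ovary-derived arrays. Foxl2 alone was most of each sum, at 3434 to 4626 and 3858 to 5330. Mesonephros-derived replicate 1 stood apart: it had the lowest median signal of the 6 arrays, 143 against 162 to 194 on the others, although the authors' scaling had put the trimmed means of all arrays at the same level. The poly-A spikes, added before amplification in the standard protocol, read 11.7, 11.6 and 2.28 times the ovary-derived mean on mesonephros-derived replicates 1, 2 and 3, against 0.72 to 1.63 times on the ovary-derived arrays. The part that either of these played in the results was not tested, beyond the values given without an array or with the spikes as a covariate.

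No member of the set passed the test. Of the 20 probe sets 19 passed the floor and were tested, and 0 were higher and 0 lower at an adjusted p of 0.05 (limma), where 0.0148% of all 27022 probe sets tested were called, all of them higher. The smallest adjusted p among the 19 was 0.382, for a probe set of Heyl. At an unadjusted p of 0.05 there was 1 member probe set, against 12.9% of all probe sets tested, and 2 had groups that did not overlap, against 21.3% of all. In direction alone 14 of the 19 were lower and 5 higher in mesonephros-derived cells, where 58% of all probe sets tested were lower and 42% higher. The median difference of the 10 genes, each represented by its brightest probe set on average over the 6 arrays (its main probe set), was −0.20 log2 units, beside −0.082 over the main probe sets of all genes tested. Differences are mesonephros-derived minus ovary-derived on log2(signal + 16), a scale that understates the change of dim genes.

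**Figure D1:**
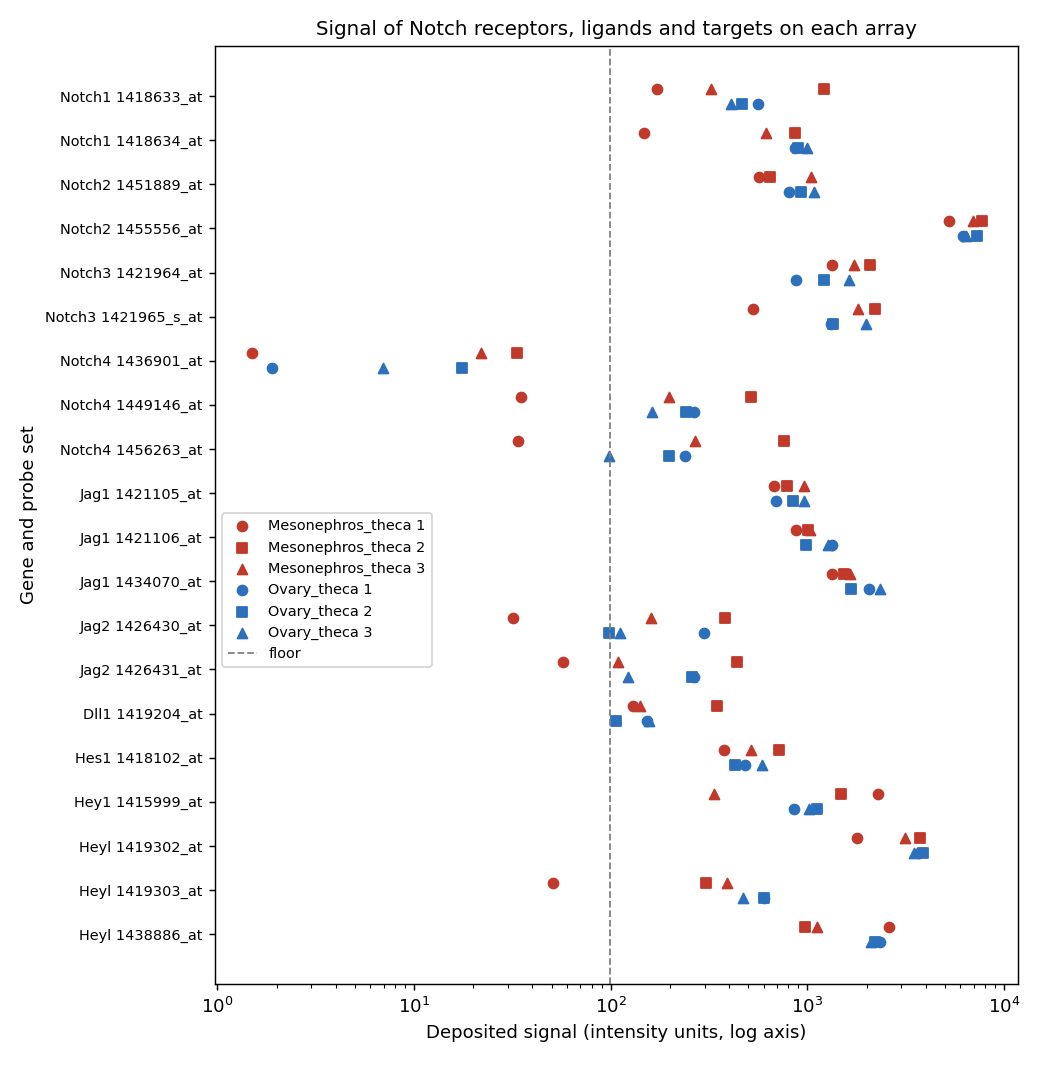
Deposited signal (log axis) of the 20 probe sets on each array, with mesonephros-derived arrays in red above ovary-derived arrays in blue and the floor of 99.4 as a dashed line. The red points spread more widely than the blue ones for most probe sets, and the Notch4 probe set 1436901_at lies below the floor on all 6 arrays.

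Among the receptors, Notch2, the receptor best known from granulosa cells, was at nearly the same level in both groups on its main probe set. Its main probe set (1455556_at) had a signal of 5222, 7689 and 6956 in mesonephros-derived replicates 1, 2 and 3, and of 6155, 7274 and 6441 in the ovary-derived ones. The groups overlapped, with a mean of 6622 ± 1267 on the mesonephros-derived arrays and of 6623 ± 581 on the ovary-derived arrays (SD, n = 3 each). The log2 difference was −0.02 ± 0.19 (SE), with a 95% interval from −0.45 to 0.42 (limma adjusted p = 0.978). That interval is the narrowest among the tested receptor probe sets. For this probe set and these 6 samples it leaves out a change in either direction of more than 0.45 log2 units. The second Notch2 probe set stood at −0.34 ± 0.29 (limma adjusted p = 0.63), and ranged from −0.60 to −0.17 when an array was left out, the first without mesonephros-derived replicate 3 and the second without replicate 1.

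Notch1, a receptor of many tissues including endothelium, was below every ovary-derived array in mesonephros-derived replicates 1 and 3 on both of its probe sets, and did not pass the test. Its main probe set (1418634_at) read 147, 868 and 619 in mesonephros-derived replicates 1, 2 and 3, against 864, 894 and 996 in the ovary-derived replicates. Mesonephros-derived replicate 1 was the lowest and replicate 3 the next lowest, while replicate 2 lay within the ovary-derived range, and so the groups overlapped. The log2 difference was −1.05 ± 0.55 (SE; 95% interval −2.29 to 0.20, limma adjusted p = 0.445), and −0.32 without mesonephros-derived replicate 1. On the other Notch1 probe set (1418633_at) the values were 171, 1220.0 and 323 in mesonephros-derived cells, against 563, 466 and 406 in ovary-derived cells. Replicate 2 was the highest of the 6 arrays there, and the difference of −0.20 turned to 0.40 without replicate 1.

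Notch3, the receptor of vascular smooth muscle and pericytes, had probe sets that went opposite ways. The main one (1421964_at) read 1340, 2070 and 1727 on the mesonephros-derived arrays and 875, 1208 and 1619 on the ovary-derived arrays. The mesonephros-derived values were mostly above, with replicate 1 inside the ovary-derived range, at a log2 difference of 0.49 ± 0.28 (SE; 95% interval −0.15 to 1.12, limma adjusted p = 0.483). It was the only receptor whose main probe set was higher in mesonephros-derived cells. Over the alternatives the difference ranged from 0.12 to 0.70, and from 0.27 to 0.70 with an array left out. Some alternatives change only the variance or the probe sets tested and so cannot move it, and all reuse the same arrays. The second probe set (1421965_s_at) had 532 in mesonephros-derived replicate 1 and 2196 and 1798 in replicates 2 and 3, against 1321 to 1990 in the ovary-derived replicates, for a difference of −0.25 ± 0.47 (limma adjusted p = 0.845). Without replicate 1 that probe set stood at 0.38. The smooth muscle contractile genes Myh11 and Tagln differed by 1.92 ± 0.18 and 1.48 ± 0.16 log2 units in the same fit (limma adjusted p = 0.0261 and 0.0475); the difference between them and Notch3 was not tested.

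Notch4, a receptor largely of endothelial cells, was close to the floor. Its main probe set (1449146_at) read 35.0, 514 and 197 on the mesonephros-derived arrays against 266, 241 and 162 on the ovary-derived arrays. Mesonephros-derived replicates 1 and 2 were the lowest and the highest of the 6, and the difference of −0.39 ± 0.75 (SE; 95% interval −2.09 to 1.31, limma adjusted p = 0.846) turned to 0.52 without replicate 1. A second probe set stood at 0.28 ± 0.88 (limma adjusted p = 0.906). The third was below the floor on all arrays, at 1.49 to 33.4 on mesonephros-derived arrays and 1.90 to 17.6 on ovary-derived arrays, and was not tested.

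Jag1, a ligand known from granulosa cells, endothelium and smooth muscle, was the only member whose main probe set did not overlap between the groups; of the main probe sets of all genes tested, 22.2% did not overlap. That probe set (1434070_at) had 1329, 1538 and 1656 in mesonephros-derived replicates 1, 2 and 3, and 2047, 1660.2 and 2333 in the ovary-derived replicates. The gap was small, with mesonephros-derived replicate 3 and ovary-derived replicate 2 nearly level. The means were 1508 ± 166 and 2013 ± 338 (SD, n = 3 each), a log2 difference of −0.41 ± 0.21 (SE; 95% interval −0.89 to 0.079) that did not pass (limma adjusted p = 0.448). The other Jag1 probe sets stood at −0.29 ± 0.23 and −0.05 ± 0.26, both with overlap. Across the alternatives the main Jag1 probe set ranged between −0.54 and −0.20, and the smallest limma adjusted p was 0.299. Here too some alternatives cannot move the difference.

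Jag2 and Dll1 were dim. Jag2, a ligand known from germ cells and endothelium, read 57.2, 437 and 109 on its main probe set (1426431_at) in mesonephros-derived cells and 266, 260.3 and 122 in ovary-derived cells. Mesonephros-derived replicate 1 was below the floor and replicate 2 was the highest array, and the difference was −0.46 ± 0.67 (SE; 95% interval −1.98 to 1.06, limma adjusted p = 0.789). Dll1, a ligand of the Delta type, read 129, 347 and 140 in mesonephros-derived against 153, 107 and 156 in ovary-derived cells. Only mesonephros-derived replicate 2 stood above the ovary-derived range, and the difference of 0.40 ± 0.48 (limma adjusted p = 0.736) came to −0.02 without it.

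**Figure D2:**
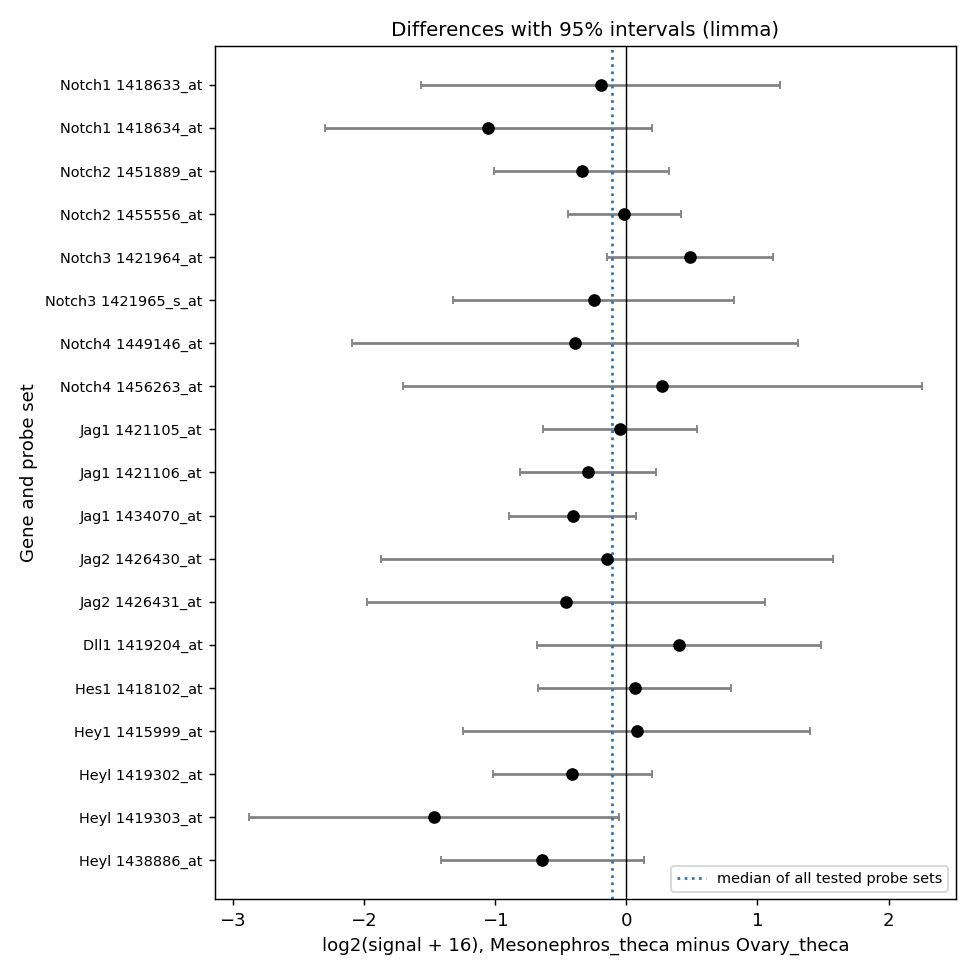
Log2 difference (mesonephros-derived minus ovary-derived) of the 19 tested probe sets with 95% intervals from limma, and the median of all tested probe sets, −0.109, as a dotted line. The interval of 1 probe set, Heyl 1419303_at, does not reach 0 (−2.88 to −0.052); intervals are not adjusted for the number of probe sets, and each Notch4 and Jag2 interval spans more than 3 log2 units.

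The target genes are transcriptional repressors of the basic helix-loop-helix family. Hes1, a target in many tissues, had a signal of 375, 714 and 515 in mesonephros-derived replicates 1, 2 and 3, against 480.0, 429 and 586 in the ovary-derived replicates. Values of the groups lay among each other, at a log2 difference of 0.06 ± 0.33 (SE; 95% interval −0.67 to 0.80, limma adjusted p = 0.943). Hey1, which acts in vessel and heart development, read 2288, 1486 and 334 in mesonephros-derived cells and 856, 1113 and 1024 in ovary-derived cells. Here the mesonephros-derived arrays bracketed the ovary-derived ones, with replicate 3 lowest and replicate 1 highest of the 6, and the difference was 0.08 ± 0.59 (SE; 95% interval −1.24 to 1.40, limma adjusted p = 0.962). Hey1 spread by an SD of 1.42 log2 units over the mesonephros-derived arrays, against 0.190 over the ovary-derived arrays.

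Heyl, the Hey family member known from vascular smooth muscle, was lower in direction on all of its 3 probe sets, none past the threshold. The main one (1419302_at) read 1792, 3736 and 3142 in mesonephros-derived replicates 1, 2 and 3, against 3689, 3856 and 3483 in the ovary-derived replicates. Mesonephros-derived replicates 1 and 3 were below every ovary-derived array and replicate 2 was not, at a log2 difference of −0.41 ± 0.27 (SE; limma adjusted p = 0.528). Without mesonephros-derived replicate 1 that difference was −0.10. A second probe set (1419303_at) had 51.2, 307 and 391 in mesonephros-derived cells, against 601, 603 and 469 in ovary-derived cells, so these groups did not overlap. Its difference was −1.46 ± 0.63 (SE), with an unadjusted p of 0.0436 and an adjusted p of 0.382 in limma, and −0.65 without mesonephros-derived replicate 1, which lay below the floor.

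On the third Heyl probe set (1438886_at) the pattern over arrays was another. The signal was 2593, 975 and 1113 in mesonephros-derived replicates 1, 2 and 3, against 2332, 2208 and 2101 in the ovary-derived replicates. Here replicate 1 was the highest of the 6 arrays and replicates 2 and 3 the lowest, and the difference was −0.64 ± 0.34 (SE; limma adjusted p = 0.453). Without replicate 1 it was −1.07 with a limma adjusted p of 0.055, and with arrays weighted by their noise −0.86 with an adjusted p of 0.0932. As the mean of the 3 probe sets Heyl stood at −0.84 (limma adjusted p = 0.243). Fewer cells of a type and less RNA per cell cannot be told apart in such bulk samples, for Heyl and for the other members.

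Mesonephros-derived arrays spread more widely than ovary-derived ones for most members. The SD on the log2 scale was larger among mesonephros-derived than among ovary-derived arrays for 16 of the 19 tested member probe sets, beside 82.5% of all probe sets tested. The median SD of the 19 was 0.758 for the mesonephros-derived group and 0.231 for the ovary-derived group, and that of all probe sets tested was 0.518 and 0.227. Jag1 went the other way on 2 of its probe sets, with an SD on the main one of 0.160 over mesonephros-derived arrays, against 0.246 over ovary-derived arrays. Mesonephros-derived replicate 1 was the lowest of the 6 arrays for 15 of the 19 member probe sets, and for 35.7% of all probe sets tested. Replicate 2 of that group was the highest for 10 of the 19, and for 23.8% of all.

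Endothelial and macrophage markers also varied over the mesonephros-derived arrays. The 12 endothelial markers summed to 4439, 9032 and 5073 in mesonephros-derived replicates 1, 2 and 3, and to 11047, 10312 and 7263 in the ovary-derived replicates. Of the 11 tested, 10 were lower in mesonephros-derived cells, against 56.5% of the main probe sets of all genes tested. Of these 11, 0 passed the threshold and 4 had an unadjusted p under 0.05 (limma), against 13.6% of all genes tested. The lowest array was mesonephros-derived replicate 1 for 7 of the 11. Kdr, a vascular growth factor receptor, read 9.91 and Cldn5, a tight junction protein of vessels, 21.0 on that array. Not all were low there: Emcn, at 1973, was higher than on any other array, and Vwf, at 199, lay within the ovary-derived range. The 8 macrophage markers summed to 1272, 11234 and 3354 in mesonephros-derived cells, against 5378, 7647 and 5037 in ovary-derived cells, and all 7 tested were lowest in mesonephros-derived replicate 1, while Cd14 was below the floor on all 6 arrays. Among arterial markers 4 of 5 tested were lowest on it too, Hey2 at 20.5 among them. The part of these cell types in the values of Notch1, Notch4, Jag2 and Heyl was not tested.

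**Figure D3:**
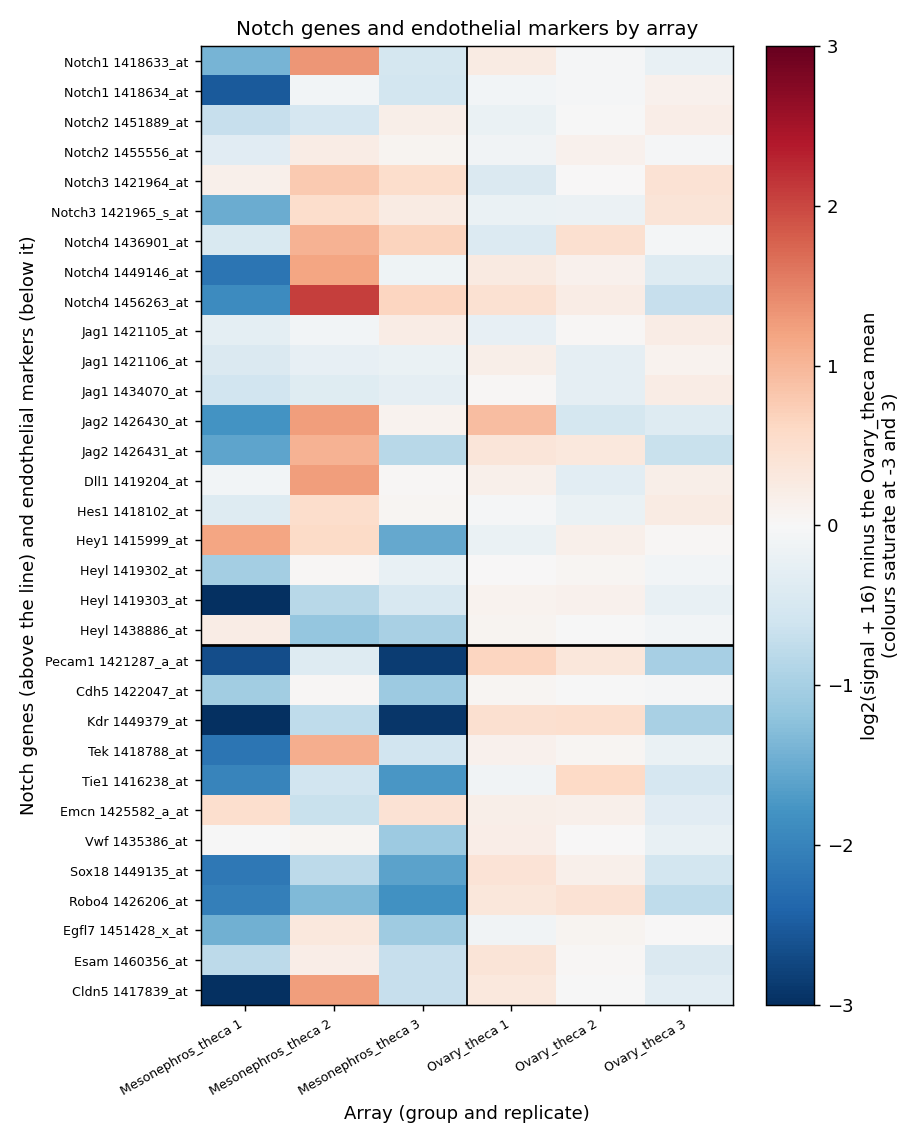
Log2(signal + 16) of each Notch probe set (above the black line) and each of 12 endothelial markers (below it) minus its ovary-derived mean, for the 3 mesonephros-derived arrays on the left and the 3 ovary-derived arrays on the right. Blue is lower and red higher; the first column, mesonephros-derived replicate 1, is the lowest for 15 of the 19 tested Notch probe sets and 7 of the 11 tested endothelial markers.

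The direction of the set rested on single arrays. Without mesonephros-derived replicate 1, 11 of the 19 probe sets were higher and 8 lower, and without replicate 2 of that group 1 was higher and 18 were lower, against 5 higher and 14 lower with all arrays. Member probe sets at an unadjusted p of 0.05 numbered 4 and 5 in these fits, and 0 passed after adjustment (limma). Of all 27022 probe sets tested, 4650 and 3850 had an unadjusted p under 0.05 in the same fits. The median difference of all probe sets was −0.041 and −0.107. With poly-A spikes as a covariate in the fit, 9 were higher and 10 lower, and Hey1 moved to −2.31 with an unadjusted p of 0.00789 and an adjusted p of 1 (limma). The spikes read higher on every mesonephros-derived array than on any ovary-derived array, so this fit cannot cleanly separate group from spikes. By their main probe sets, Notch1, Notch3, Jag1 and Heyl were on the same side of 0 in each fit that left out an array.

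**Figure D4:**
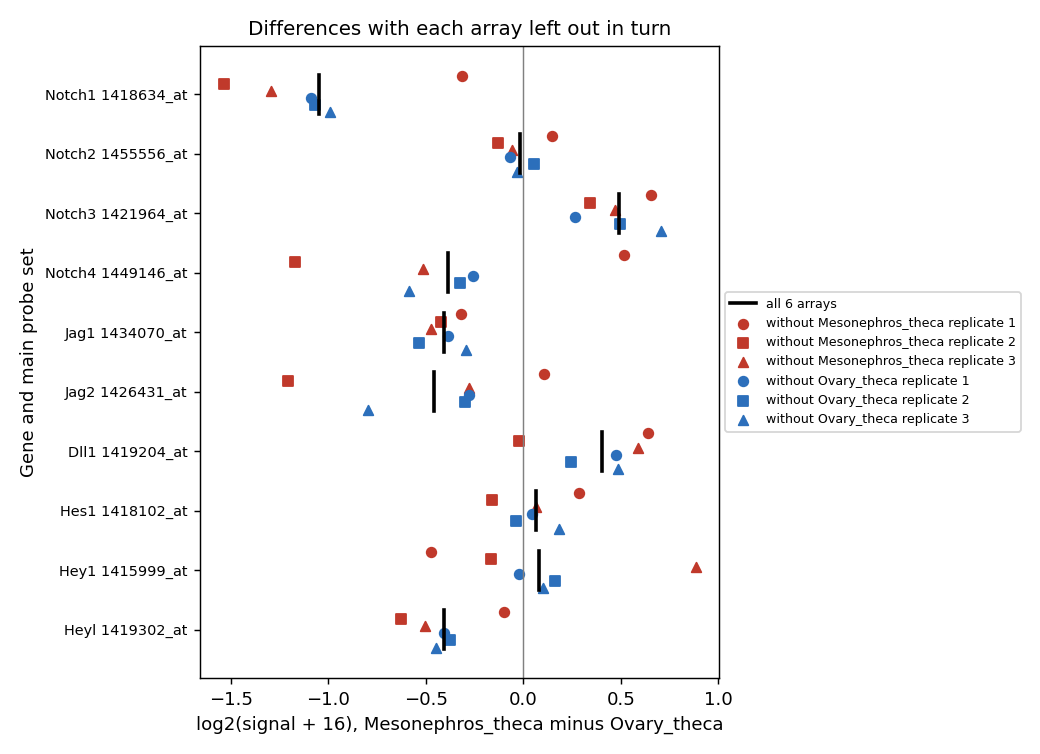
Log2 difference (mesonephros-derived minus ovary-derived) of the main probe set of each gene with all 6 arrays (black bar) and with each array left out in turn (red for a mesonephros-derived array, blue for an ovary-derived array). Leaving out mesonephros-derived replicate 1 took Notch4 to 0.52, and leaving out replicate 2 took it to −1.17, while Jag1 stayed between −0.54 and −0.29.

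The other genes of the pathway were read from lists grouped by role. Of 49 genes listed, 45 had a named probe set and 36 passed the floor by their main probe set; 18 were higher, 18 lower and 0 past the threshold (limma). Of the main probe sets of all genes tested, 43.5% were higher, 56.5% were lower and 0.0256% were called. At an unadjusted p of 0.05 there were 8 of the 36, against 13.6% of all genes tested, and 10 of the 36 had no overlap between groups, against 22.2%. Their median difference was 0.023 log2 units. Rbpj, the DNA-binding partner of all Notch receptors, had 552, 832 and 673 on mesonephros-derived arrays, against 978, 832 and 717 on ovary-derived arrays, and stood at −0.30 ± 0.27 (SE; limma adjusted p = 0.641), named here for its role after its values were seen.

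Among feedback genes and further targets 3 of 7 were tested. Nrarp, a target that in turn restrains Notch signalling, had a signal of 895, 976 and 1078 in mesonephros-derived against 555, 641 and 691 in ovary-derived cells. All mesonephros-derived arrays lay above all ovary-derived ones, at a log2 difference of 0.63 ± 0.24 (SE) with an unadjusted p of 0.0269 and an adjusted p of 0.352 (limma). On its other probe set (1417986_at) the values were 1175, 1041 and 1158 in mesonephros-derived cells, against 579, 484 and 511 in ovary-derived cells. These did not overlap either, and the difference stood at 1.08 ± 0.24 (limma unadjusted p = 0.00133, adjusted p = 0.206). Hey2, a repressor of arterial endothelium and muscle, stood at −1.47 ± 0.87 (limma adjusted p = 0.495). Hes2, Hes3, Hes5 and Hes7 were below the floor by their mean and not tested, though Hes7 read 102 on mesonephros-derived replicate 3.

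Ligand ubiquitin ligases, which let a ligand pull on its receptor, gave 3 higher and 1 lower of 4 tested. Mib2 had 578, 747 and 547 in mesonephros-derived against 165, 424 and 177 in ovary-derived cells. The groups did not overlap, at 1.35 ± 0.41 log2 units (SE; limma unadjusted p = 0.00911, adjusted p = 0.288). Neurl1b stood at 1.05 ± 0.43, also without overlap (limma adjusted p = 0.367). In the nuclear complex 5 of 8 tested genes were higher, among them the coactivator Maml2 at 0.80 ± 0.26 and the corepressor Spen at 0.71 ± 0.31 (limma adjusted p = 0.302 and 0.384).

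Genes of receptor turnover gave 2 higher and 5 lower of 7 tested. Dtx3, of the Deltex family, had 3009, 2272 and 2203 in mesonephros-derived against 1462, 1219 and 1757 in ovary-derived cells. The groups did not overlap, with a difference of 0.75 ± 0.23 (SE; limma unadjusted p = 0.00876, adjusted p = 0.286). Its relative Dtx4 went the other way at −0.48 ± 0.20, with a second probe set at −0.83 (limma adjusted p = 0.376 and 0.258). Numb, an inhibitor of Notch that is asymmetrically inherited in some dividing cells, stood at −0.99 ± 0.42 (limma adjusted p = 0.379), with another probe set at 0.31; it falls outside the naming rule and was named after its values were seen.

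The proteases that cut the receptor gave 3 higher and 5 lower of 8 tested, with the gamma-secretase subunits Aph1a at −0.65 ± 0.29 and Psenen at −0.46 ± 0.23 log2 units (limma adjusted p = 0.395 and 0.425). Of the enzymes that add sugars to the receptor 4 of 5 were tested, 2 in each direction, with Poglut1 at 0.68 ± 0.45 and Mfng at −0.97 ± 0.91 (limma adjusted p = 0.527 and 0.657). Of 5 further ligands and ligand-like genes 2 were tested, Dner at 1.03 ± 0.55 and Dll4, the main arterial ligand, at 0.20 ± 0.59 (limma adjusted p = 0.452 and 0.899). The Dll4 values were 71.3, 304 and 69.6 on mesonephros-derived arrays, against 119, 88.4 and 96.0 on ovary-derived arrays, above the floor on 1 array of each group.

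**Figure D5:**
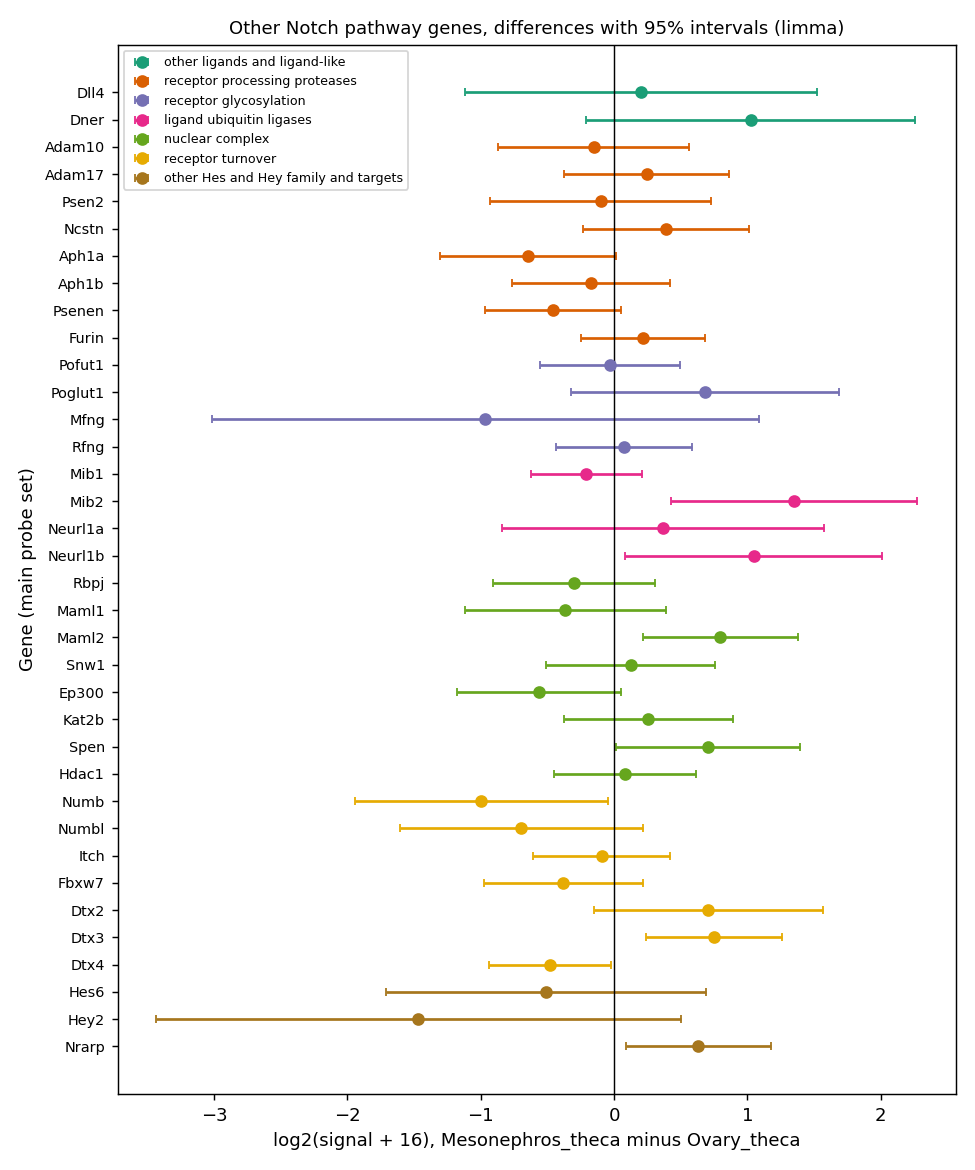
Log2 difference (mesonephros-derived minus ovary-derived) of the 36 tested Notch pathway genes outside the 10 members, by main probe set, with 95% intervals from limma and coloured by role. The points fall on both sides of 0, 18 each, and 0 of 36 passed after adjustment over all probe sets.

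The genes most like the brightest receptor, ligand and target over the 6 arrays were found among 11702 genes by Pearson correlation of log2(signal + 16), given as a description. Notch2 was closest to Cryzl1 (r = 0.995), Ttc7 (0.986) and Herc2 (0.986). Jag1 was closest to Dhx30 (0.99), 4930481B07Rik (0.982) and Samm50 (0.982). Heyl was closest to Trim24 (0.998), Pard3 (0.997) and Man1a (0.996). The points of each are the same 6 arrays, with mesonephros-derived replicate 1 the lowest for all 3 members on these probe sets.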

How the data were processed

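RNA of 6 samples, 3 per group, was amplified from a fixed volume per sample and hybridised to 1-colour arrays, per the labels' protocols. The values the authors deposited are linear intensities per probe set, and the submitters' processing notes name MAS5 with no version; which settings were used is not given in the sources used here. After trimming 2% at each end, each array had a mean of 500, so no further scaling was applied. Intensities were moved to log2(signal + 16). The 64 control probe sets were left out. Probe sets were named by the platform annotation, and 34945 had 1 symbol, 932 several and 9160 none here.

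Probe sets whose mean log2 value lay below the 40th percentile (a signal of 99.4, the floor) were not tested, and no detection calls were used. The other 27022 were fitted with limma 3.58.1 in R 4.3.3 (eBayes with intensity trend, group as only factor, Benjamini-Hochberg over all). A check on simulated data came first. It drew both groups with the spread of the ovary-derived arrays, and so did not cover the wider spread of the mesonephros-derived arrays. Intervals and SE come from the limma fit of the real arrays. The number of arrays limits the precision.

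The members, lists and tests were chosen with earlier results of these data known. The naming rule took all members, any pathway gene past the threshold, and the 2 genes of each role list with the smallest p. Alternatives are listed with their effect at the end. Some listed genes are not reported here. The replicate numbers were not used to pair the samples in the main fit.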

Additional observations from a re-analysis of the deposited data

How the results depend on the processing

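In all 21 alternatives 0 member probe sets and 0 other Notch pathway genes passed the threshold (limma or, for the plain test, the same adjustment), with 0 to 5 member probe sets at an unadjusted p of 0.05. Among all probe sets or genes tested, 661 to 5530 reached that unadjusted p. The number of probe sets called among all tested, 4, was 2 with a pseudocount of 1, 7 with 64, 2 with no floor, 8 with a floor at the 60th percentile, 7 after quantile normalization, 2 after median centring, 8 where probe sets were averaged per gene, 1 without the intensity trend, 252 with array weights, 1 with a plain test and 0 with the poly-A spike covariate (661 at an unadjusted p of 0.05). Leaving out an array gave 0 to 104 calls, with mesonephros-derived replicate 1 left out for the 104; it was 2 when replicate 2 was left out, and 0 for replicate 3 or any ovary-derived array; the cause was not tested. With the replicate number as a block the count was 7 against 4, and no call of a member was changed. Deviations of same-numbered arrays correlated at 0.020, 0.058 and −0.0075, beside −0.046 to 0.029 for the other pairs of arrays. With 3 arrays per group these values cannot settle whether the numbers pair the samples.

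Member differences that changed side of 0, none of them past the threshold, were these. With the spike covariate Notch2 stood at 0.26 (1451889_at) and 0.12 (1455556_at), Notch3 1421965_s_at at 0.21, Notch4 1449146_at at 0.26, Jag1 1421105_at at 0.18, Jag2 1426430_at at 0.58, Dll1 at −0.20, Hes1 at −0.084, Hey1 at −2.31 and Heyl 1419303_at at 0.12. With array weights Notch3 1421965_s_at stood at 0.16, Jag1 1421105_at at 0.061, Jag2 1426430_at at 0.40 and Hey1 at −0.72. After median centring Notch2 1455556_at stood at 0.063 and Jag1 1421105_at at 0.032, and after quantile normalization Jag1 1421105_at at 0.022. With arrays left out, the ranges that crossed 0 were −0.96 to 0.40 (Notch1 1418633_at), −0.13 to 0.15 (Notch2 1455556_at), −0.63 to 0.38 (Notch3 1421965_s_at), −1.17 to 0.52 and −0.62 to 1.36 (Notch4 1449146_at and 1456263_at), −0.18 to 0.072 (Jag1 1421105_at), −0.85 to 0.68 and −1.21 to 0.11 (Jag2 1426430_at and 1426431_at), −0.020 to 0.64 (Dll1), −0.16 to 0.29 (Hes1) and −0.48 to 0.88 (Hey1). The cause of these changes was not tested. Jag2, Dll1 and Notch4 lay close to the floor, where signal over background limits what can be seen.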
